A study of Homo sapiens with 5 samples.

Results

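NEAT1 and MALAT1 are neighbouring genes for long noncoding RNAs on chromosome 11, and their chromatin was examined here by chromatin immunoprecipitation and sequencing (ChIP-seq) in the human lymphoma line U2932, an established cell line that was left untreated. The members were chosen by position, as every called peak between 65180000 and 65285000 on chromosome 11 of the human build hg19, and the genes themselves were picked from these data because each carries an RNA polymerase II peak over 9 kb wide. This gave 159 peaks of 1150695 in 6 peak lists. In that build NEAT1 runs from 65190269 to 65213011 (22743 bp) and MALAT1 from 65265233 to 65273940 (8708 bp), both on the plus strand, with 52221 bp between them. Cross-linked, sonicated chromatin was precipitated with antibody 1 or antibody 2, non-commercial rabbit polyclonal antibodies against the PR domain protein PRDM11, or RNA polymerase II itself was precipitated. Each of the 3 gave 1 library, and its peaks were called once against a rabbit IgG precipitate and once against unprecipitated input. With no second library per antibody there is no error between replicates and no test between libraries, so every value describes these libraries. The lists give positions only, without read counts, so sequencing depth is unknown, and a region without a peak need not lack the protein.

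RNA polymerase II transcribes both genes. NEAT1 RNA is the scaffold of paraspeckles, nuclear bodies that form around it. It is made from a single start as a short polyadenylated form and a long form that reaches the end of the gene. MALAT1 RNA collects in nuclear speckles, which are rich in splicing factors, and its end is cut by RNase P, which releases a small tRNA-like RNA named mascRNA. Both RNAs stay in the nucleus and are abundant in many cell types. PRDM11 belongs to a family of chromatin regulators that share the PR domain. In the RefSeq gene order, the protein-coding gene FRMD8 comes directly before NEAT1, MIR612 lies inside NEAT1, FAUP4, ENEMAL and LINC02736 lie between the genes, and the antisense gene TALAM1 and MASCRNA overlap MALAT1. These were not placed on hg19 here, and ChIP peaks do not distinguish strands.

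Against IgG, polymerase peaks covered 98.7% of MALAT1 and 86.5% of NEAT1. The widest PRDM11 antibody peaks lay, against either control, at the start of MALAT1. Elsewhere in the window the widest antibody peak measured 275 bp, called for antibody 2 against input. Against IgG, the window held 45 polymerase peaks covering 48.6 kb, 27 antibody 2 peaks covering 4901 bp and 4 antibody 1 peaks covering 1603 bp. Of the 4 antibody 1 peaks, 3 lay at the MALAT1 start and none lay in NEAT1. Against input the counts were 54, 25 and 4. As a share of the window, polymerase peaks covered 46.3%, antibody 2 peaks 4.67% and antibody 1 peaks 1.53%.

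**Figure D1:**
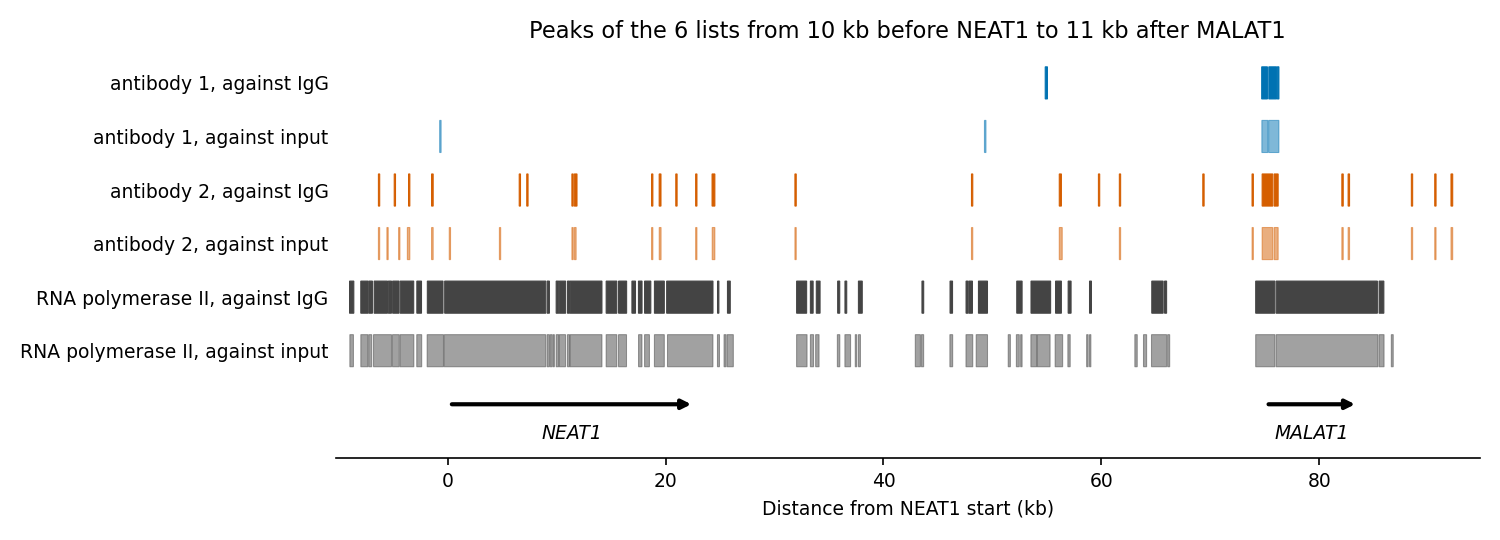
Peaks of the 6 lists across the window, by distance from the NEAT1 start in kb (dark, called against IgG; pale, called against input; arrows, the genes). The narrowest peaks are drawn as thin lines. Polymerase covers most of both genes, and the wide antibody 1 and antibody 2 peaks coincide at the MALAT1 start only.

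The MALAT1 start carried a compact group of peaks from all 3 antibodies. Against IgG, antibody 1 had a 528 bp peak over the start (65264985 to 65265512), a 716 bp peak from 403 to 1118 bp after it (65265636 to 65266351), and a 151 bp peak from 1184 to 1334 bp after it (65266417 to 65266567). Antibody 2 had a 976 bp peak over the start (65265024 to 65265999) and a 376 bp peak from 889 to 1264 bp after it (65266122 to 65266497). The 2 groups spanned 1583 bp and 1474 bp. They shared 1164 bp, which is 83.4% of the bases under these antibody 1 peaks and 86.1% of those under these antibody 2 peaks.

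These antibody peaks were wide for their lists. The 976 bp peak ranked 60 by width among 465837 antibody 2 peaks, and the 376 bp peak ranked 2014. Of the antibody 1 peaks, the 716 bp peak ranked 637 and the 528 bp peak 1296 among 13499, while the 151 bp peak was narrower than the median of its list (184 bp). Against input the antibody 2 pair was called at identical positions. Antibody 1 had a 557 bp peak over the start and a single 942 bp peak from 393 to 1334 bp after it, where the IgG list has 2. These 3 antibody 1 peaks of the IgG list were thus found again against input. They were 3 of the 4 in the window, compared with 81.3% of all antibody 1 peaks. The antibody 1 and antibody 2 lists share their control libraries, and how far that shared control shaped their coincidence here was not tested.

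The called polymerase peaks were divided at the same place. A 1765 bp polymerase peak covered the MALAT1 start, from 799 bp before it to 965 bp after it (65264434 to 65266198), and the domain over 9 kb began only 1080 bp after it (65266313). As called, the start of MALAT1 therefore lay outside the broad domain, across a gap of 114 bp, which was 108 bp against input. The 716 bp antibody 1 peak and the 376 bp antibody 2 peak both spanned this gap whole. Apart from the gap, every base of the antibody 1 and antibody 2 peaks at the start was also under polymerase (1281 of 1395 bp and 1238 of 1352 bp).

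**Figure D2:**
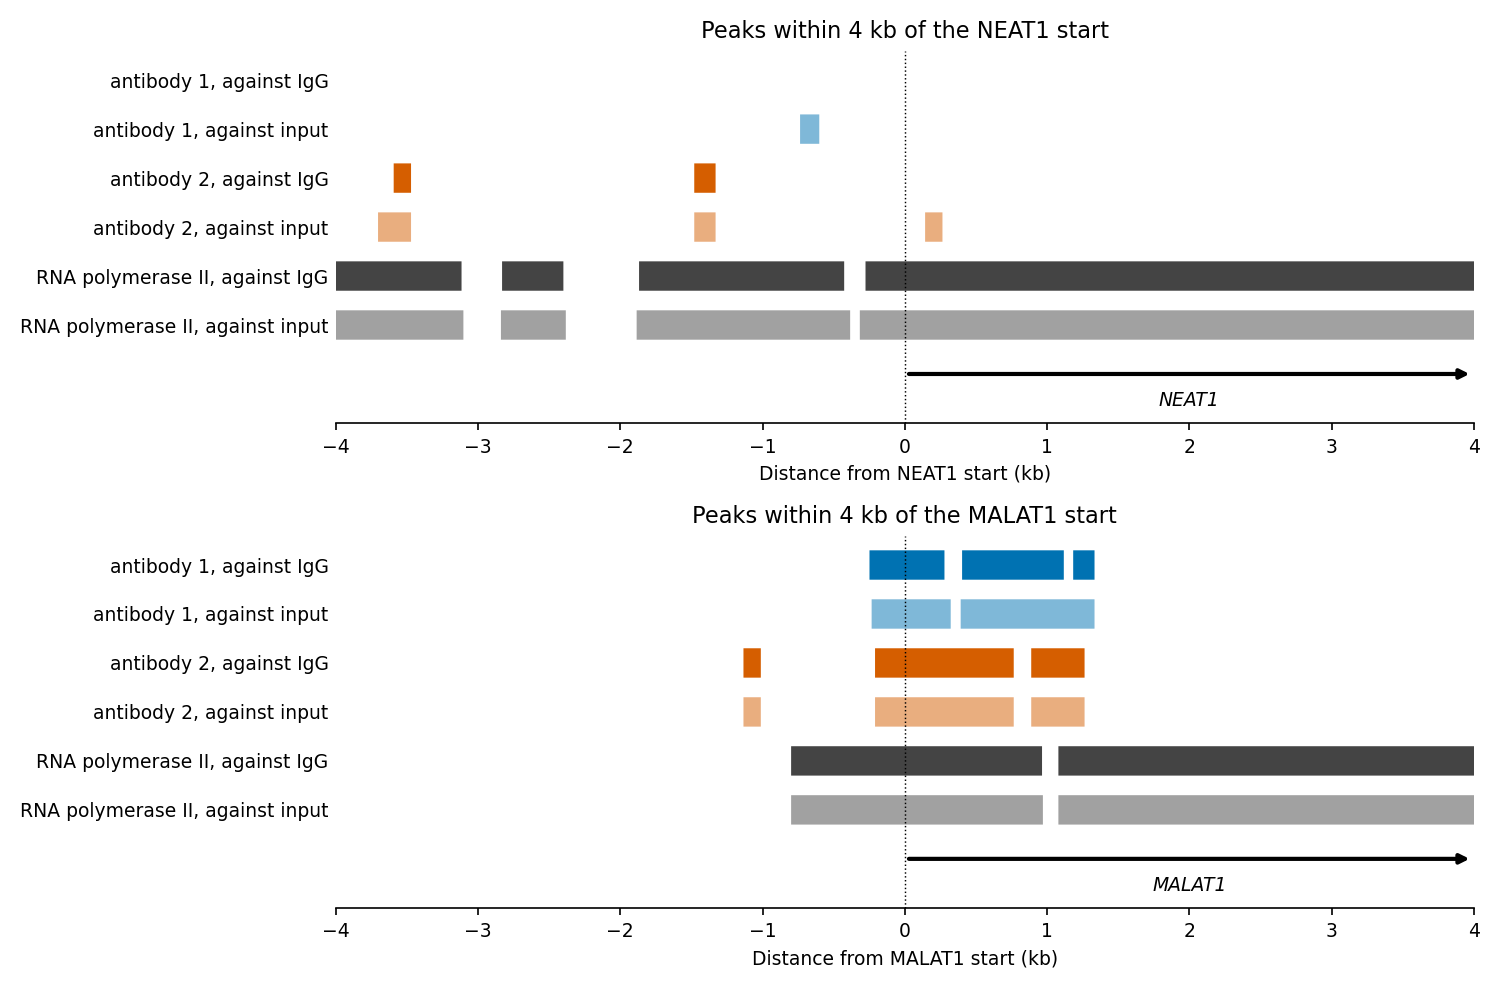
Peaks within 4 kb of the NEAT1 start (top) and the MALAT1 start (bottom), by distance from the start in kb (dark, against IgG; pale, against input). At MALAT1 both antibodies cover the start and the 114 bp gap between the polymerase peaks; at NEAT1 no antibody peak called against IgG lies within 1 kb of the start.

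RefSeq gives 2 start sites for MALAT1, 1307 bases apart in build GRCh38.p14, and their promoter sequences are shown because the antibody peaks lie around the start of this gene. Each runs from 250 bases before the start site to 50 bases from it on, plus strand, chr11:65497488-65497787 for the first and chr11:65498795-65499094 for the second. Capitals mark matches to the 6 motifs searched on both strands: the GC box GGGCGG, the TATA box TATAAA, the CCAAT box, the E-box CACGTG, the cyclic AMP response element TGACGTCA and the AP-1 site TGAGTCA. No matches overlap.
MALAT1 first start: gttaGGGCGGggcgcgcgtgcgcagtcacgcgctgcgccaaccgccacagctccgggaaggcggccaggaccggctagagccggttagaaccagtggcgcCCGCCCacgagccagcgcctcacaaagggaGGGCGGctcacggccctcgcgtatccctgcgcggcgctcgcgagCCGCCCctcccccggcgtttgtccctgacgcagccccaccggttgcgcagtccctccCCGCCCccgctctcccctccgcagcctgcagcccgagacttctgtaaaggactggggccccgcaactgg
MALAT1 second start: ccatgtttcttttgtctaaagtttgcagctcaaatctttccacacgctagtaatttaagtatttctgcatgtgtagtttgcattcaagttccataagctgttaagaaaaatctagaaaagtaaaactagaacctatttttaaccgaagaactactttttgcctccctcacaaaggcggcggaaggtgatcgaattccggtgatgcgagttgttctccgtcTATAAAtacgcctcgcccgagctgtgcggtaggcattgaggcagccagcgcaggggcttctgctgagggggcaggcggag

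The sequences differ in composition. The first is 73.7% G and C with 37 CpG dinucleotides, and the second 46.0% with 14, against medians of 58.7% and 14 over 35116 RefSeq promoters. The first holds 5 matches to GGGCGG and none to the other motifs, and the second holds 1 match to TATAAA, 30 bases before its start site, and none to the others. GGGCGG occurs in 45.0% of all promoters and TATAAA in 11.5%. A match describes the letters and does not show a bound factor. Positions were not converted between the builds, and the RefSeq gene is 8779 bp long against 8708 bp in hg19. Set side by side only, the second start site is 1307 bases after the first in GRCh38.p14. In hg19 the second antibody 2 peak ends 1264 bp, and the last antibody 1 peak 1334 bp, after the gene start. RefSeq promoters matched 1 of the 2 genes; NEAT1 had no entry.

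The NEAT1 start showed a different arrangement. The polymerase domain of 9280 bp began 276 bp before the start (65189993) and covered it, whereas the MALAT1 start lay in a separate peak. A break lay close to the NEAT1 start too, before the gene: the preceding polymerase peak, of 1443 bp, ended at 65189843. No antibody 1 peak lay within the gene against either control. Against IgG the nearest was 19056 bp before the start, outside the window; against input there was one of 136 bp, 601 bp before it (65189533 to 65189668). For antibody 2 the nearest against IgG was 1330 bp before the start (151 bp wide), and against input a 123 bp peak lay 143 bp after it. Neither of the peaks called near the start against input had a counterpart against IgG. An absent antibody 1 peak is the common state: 0.486% of all 1-kb bins of the genome held one, against 0 of 23 steps of 1 kb along NEAT1 and 2 of 9 along MALAT1.

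Along the gene bodies, polymerase covered 86.5% of NEAT1 in 13 peaks and 98.7% of MALAT1 in 2. These values describe the measure by which the genes were picked. The 9280 bp domain covered the first 39.6% of NEAT1. Beyond it the gene held 12 gaps in all, with a median of 221 bp and a longest of 616 bp at 9341 bp from the start. Against input there were 13, and the longest was 1103 bp at 16416 bp from the start. With NEAT1 cut into 3 equal lengths, coverage was 100% in the first, 81.6% in the middle and 77.9% in the last. The distal part was led by a 2928 bp peak (65201504 to 65204431) and a 4254 bp peak over the gene end (65210368 to 65214621), which rank 93 and 37 by width among 50161 polymerase peaks. The other 10 measured 193 to 983 bp. In MALAT1 the 9294 bp domain covered 87.6% of the gene, and it left no gap from its first base to the gene end.

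Polymerase also extended past both gene ends. The last NEAT1 peak reached 1610 bp beyond the annotated end, followed by small peaks of 129 and 261 bp. The MALAT1 domain reached 1666 bp beyond its end (65275606), with a 440 bp peak after it that ended 2259 bp past the gene. The flanks before the genes differed. The 5 kb before NEAT1 was 78.7% covered by polymerase peaks, whereas that before MALAT1 was 16.0% covered, all of it by the peak over the start. In the 10269 bp of the window before NEAT1, 67.4% of bases lay under polymerase, in 9 peaks of 296 to 1443 bp and the edge of the domain. FRMD8, the RefSeq neighbour on this side, was not placed on hg19, so these upstream peaks were assigned to no gene.

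**Figure D3:**
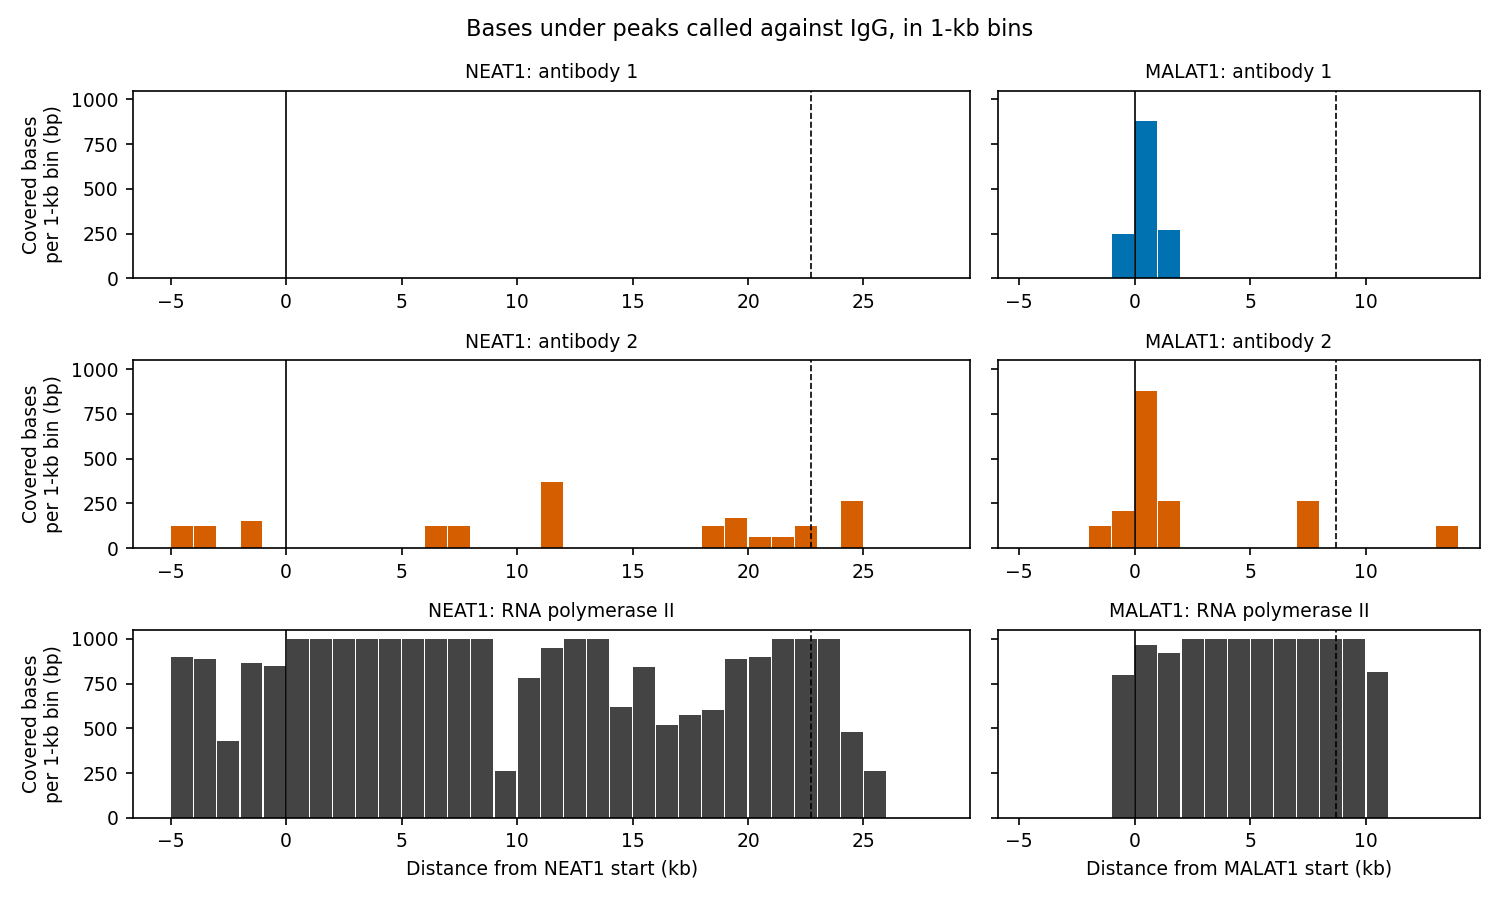
Bases under peaks called against IgG in 1-kb bins (bp per bin), from 5 kb before each gene to 5 kb after it, by distance from the start in kb (solid line, start; dashed line, end). Antibody 1 has no bar along NEAT1 and its highest at MALAT1 in the first bin (877 bp), where antibody 2 also has its highest (878 bp).

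Inside the genes away from the MALAT1 start, antibody 2 gave narrow peaks. Against IgG, NEAT1 held 7 of them, 123 to 249 bp wide, covering 4.55% of the gene, with none in its first 6 kb. Against input it held 6, of which 2 of 123 bp lay 143 and 4746 bp after the start and had no counterpart against IgG. The widest, 249 bp (65201893 to 65202141), lay within the 2928 bp polymerase peak. MALAT1 held 2 besides the pair at its start, of 129 bp and 137 bp, 7109 and 7683 bp from the start and near its end. Both were called at identical positions against input. In steps of 1 kb, 7 of 23 along NEAT1 and 3 of 9 along MALAT1 held an antibody 2 peak, against 15.4% of all 1-kb bins of the genome. The MALAT1 steps at 0 and 1 kb hold the pair at the start, and only the step at 7 kb lies away from it. Of the 27 antibody 2 peaks in the window, 17 (63.0%) had the minimum width of their list (123 bp), compared with 78.4% of the whole list. Against input, 21 of the 27 were found again (77.8%, exact interval 57.7% to 91.4%), a smaller share than the 93.2% of all antibody 2 peaks. In the whole window, 18 of the 27 overlapped polymerase, against 3.20% of all antibody 2 peaks; the window was picked for its polymerase, which covers 46.3% of it.

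Between the genes, polymerase peaks were smaller and scattered. They covered 21.7% of the 52221 bp, and 27 of 53 steps of 1 kb held one, against 1.69% of all 1-kb bins; polymerase had picked the window, so nothing is read from this. The widest wholly between the genes was 1804 bp (65243810 to 65245613), and it contained the only other antibody 1 peak of the window, 208 bp wide (65245114 to 65245321). That antibody 1 peak lay 19912 bp before MALAT1, overlapped no antibody 2 peak and was not found against input. Against input, antibody 1 had instead a 144 bp peak 25553 bp before MALAT1 (65239537 to 65239680), also inside a polymerase peak and absent against IgG. Within the window, then, the antibody 1 peaks at the MALAT1 start were present against both controls, and those elsewhere against 1 control each.

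Taken over the window, all 4 antibody 1 peaks overlapped polymerase, compared with 55.2% of all antibody 1 peaks, and 3 of 4 overlapped antibody 2, compared with 47.2%. The same 3 overlapped both, compared with 32.6%. The exact 95% interval for 3 of 4 runs from 19.4% to 99.4% and holds the background, and the 3 adjoining peaks are a single site rather than independent cases. Among antibody 1 peaks of 500 bp or wider, 96.7% overlapped antibody 2, so the pair of wide peaks at MALAT1 did what nearly all peaks of their width do. Against input 2 of 4 overlapped antibody 2 (background 34.8%) and 4 of 4 polymerase (background 44.9%), and 18 of 25 antibody 2 peaks overlapped polymerase (background 6.29%). Of the polymerase peaks, 44 of 45 were found again against input (background 89.4%). In the other direction, the IgG lists held 2 of the 4 input-called antibody 1 peaks (background 19.5%), 21 of 25 for antibody 2 (89.1%) and 43 of 54 for polymerase (52.4%).

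The domains of the 2 genes were nearly equal in width, 9294 bp for MALAT1 and 9280 bp for NEAT1, and ranked 4 and 5 among all polymerase peaks against IgG. Just 5 peaks exceeded 9 kb, and the widest below it measured 8893 bp on chromosome 18. Against input they measured 9349 and 9321 bp and ranked 15 and 16 among 80364. Joining peaks less than 500 bp apart made the widest stretch at NEAT1 14939 bp, over its distal part, and that at MALAT1 11766 bp. The joined MALAT1 stretch began 799 bp before the gene and so held its start. With peaks less than 1000 bp apart joined, NEAT1 lay in 1 stretch of 34950 bp (65181260 to 65216209), the widest of 27116. MALAT1 stayed at 11766 bp and ranked 93.

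The antibody content of the 2 domains was set beside that of the 276 polymerase peaks of 2000 bp or wider. The MALAT1 domain held 2 antibody 1 peaks, both confined to its first 255 bases where they entered it, covering 2.04% of it, and 3 antibody 2 peaks covering 4.85%. The NEAT1 domain held no antibody 1 peak and 2 antibody 2 peaks of 123 bp, 6841 and 7533 bp into it, covering 2.65%. Of the 276, 32.2% (26.8% to 38.1%, exact interval) held an antibody 1 peak and 75.0% an antibody 2 peak. Among the 89 that held an antibody 1 peak, the MALAT1 domain had the smallest share under antibody 1. In the subset of 27 at least 5000 bp wide the shares were 44.4% and 100%, and among these 2 had a smaller share under antibody 2 than the NEAT1 domain and 9 a smaller share than the MALAT1 domain. The NEAT1 domain lay 18780 bp from the nearest antibody 1 peak. Among the 276, the median distance was 4758.5 bp and 79 lay farther away than the NEAT1 domain. Among the 27, the median was 1650 bp and 6 lay farther away.

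**Figure D4:**
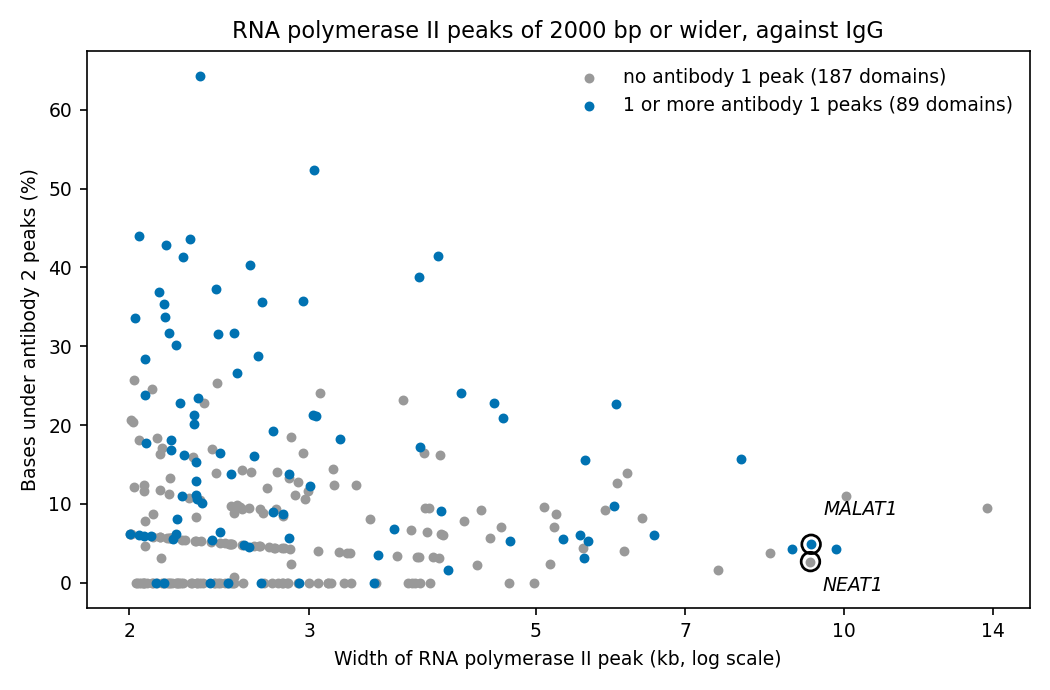
Each point is an RNA polymerase II peak of 2000 bp or wider, called against IgG; the x axis is its width (kb, log scale) and the y axis the share of its bases under antibody 2 peaks (%). Blue points hold 1 or more antibody 1 peaks (89 of 276), and the circled NEAT1 and MALAT1 domains, at 2.65% and 4.85%, lie below the median of 6.05%, with 75 domains lower than NEAT1 and 106 lower than MALAT1.

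The domains most like them were found among 25 other polymerase peaks of 5000 bp or wider, by the distance over log2 width and the shares under antibody 1 and antibody 2, each in units of its SD. Nearest to NEAT1 were peaks on chromosome 1 (203273075 to 203281537, 8463 bp, distance 0.41), chromosome 11 (118754297 to 118761824, 7528 bp, 0.82) and chromosome 17 (56401840 to 56411661, 9822 bp, 0.88). The first 2 of these also held no antibody 1 peak, but antibody 1 coverage entered the distance, so this follows in part from how they were chosen. Nearest to MALAT1 were the same peaks on chromosomes 17 (0.51) and 1 (0.55) and one on chromosome 18 (60978380 to 60987272, 8893 bp, 0.89). The peak on chromosome 18 held 2 antibody 1 peaks, and the same limit applies to it. The farthest of the 25 lay at 6.34 from NEAT1 and 5.80 from MALAT1. These peaks were not assigned to genes.

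Against consecutive windows of the same 105 kb length over the genome, the NEAT1 and MALAT1 window was extreme in polymerase, by which it was picked: 1 of 26874 windows had as many covered bases. For antibody 1, 261 windows (covered length at least 1603 bp) and for antibody 2, 765 windows (at least 4901 bp) matched or exceeded it, so that 99.0% and 97.2% of windows had less. By number of peaks, 97.2% of windows had fewer than 4 antibody 1 peaks and 87.5% fewer than 27 antibody 2 peaks. Mean coverage over the windows was 0.126% for antibody 1 and 2.30% for antibody 2. The position of the window in these distributions is a description, since windows rich in polymerase were not compared separately.

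**Figure D5:**
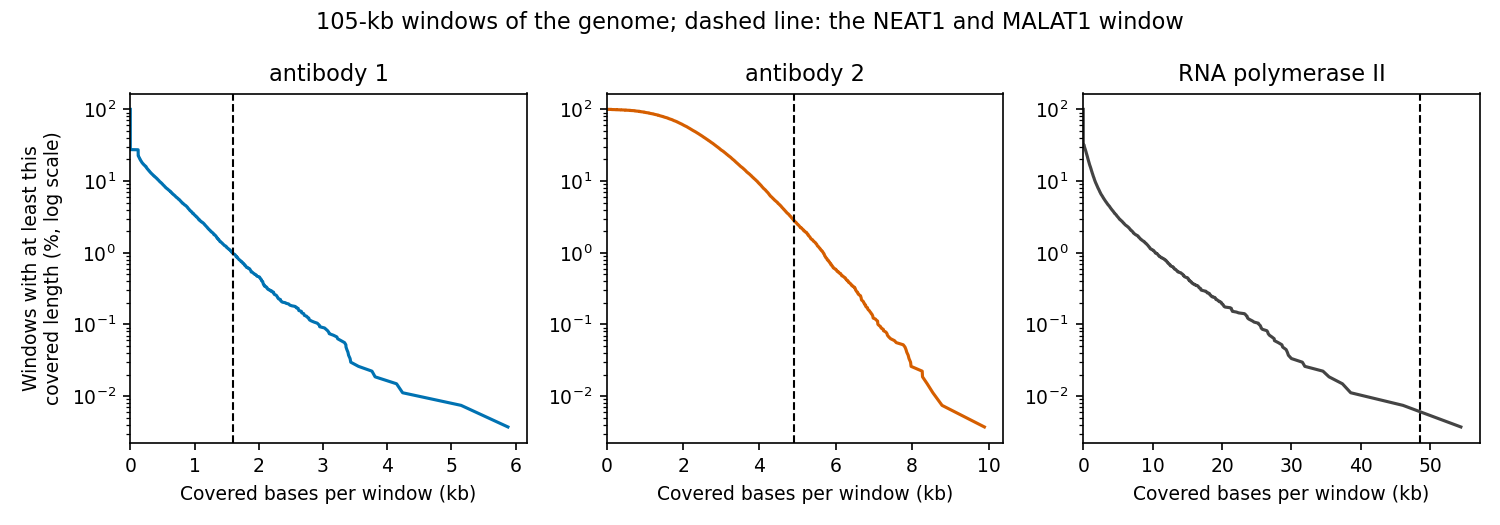
Share of 26874 genome windows of 105 kb (%, log scale) that reach at least the covered length on the x axis (kb), for each antibody against IgG. Dashed lines mark the NEAT1 and MALAT1 window at 1.60 kb for antibody 1, 4.90 kb for antibody 2 and 48.6 kb for RNA polymerase II.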

How the data were processed

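Bowtie 0.12.7, MACS2 2.0.9, SAMtools and the build hg19 are listed, without order or settings, per the submitters' processing notes. Each of the 6 lists deposited by the authors holds 3 columns (chromosome, start, end), and its name gives the control and a q threshold of 0.1. The lists hold no score, so thresholds and heights could not be compared, and a low threshold admits many narrow peaks. Starts were counted from 0 in the files and are printed from 1. The antibody in its label gave each sample its group.

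Gene positions came with the definition of the members; the members, lists and comparisons were chosen with earlier results of these data known. Peaks overlapped when they shared at least 1 bp. Lists called against IgG were the main setting, and no test was run because each antibody has 1 library. Genome windows and bins ran to the last peak of each chromosome; windows without a peak in any list were left out, and unmappable sequence was not. Intervals are exact (Clopper-Pearson) 95% binomial intervals and cover counting error only. Every peak of antibody 1 and polymerase in the genes was described or counted; antibody 2 peaks are given by count and range with the widest named; like domains are the 3 nearest. Alternatives were lists called against input, a minimum width of 200 bp, 2 kb added to each gene, joining of close peaks, 50% coverage and windows of chromosome 11. Python 3.11.15, NumPy 2.4.6 and SciPy 1.17.1 were used, and the interval code was tested on simulated data.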

Additional observations from a re-analysis of the deposited data

How the results depend on the processing

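Of 56 values recomputed, 35 stayed within a factor of 1.5 (counts and lengths) or within the exact interval (shares of genome windows), and 21 moved beyond it. The interval for shares is narrow, as it rests on 26874 windows and leaves out the spread of the alternative, so small shifts count as moved. For antibody 1 covered length, 99.0% over all windows against 98.9% on chromosome 11 counted as moved. With peaks of 200 bp or wider only, the window held 5 antibody 2 peaks, NEAT1 had 249 bp under antibody 2, the NEAT1 domain held 0 antibody 2 peaks, and the MALAT1 domain held 1 peak of each antibody; fewer peaks follow from the width limit itself. Against input, the MALAT1 domain held 1 antibody 1 peak, because the pair called against IgG was called as one. With 2 kb added on each side of NEAT1, 1569 bp lay under antibody 2. With peaks joined, the widest stretch at NEAT1 measured 14939 bp (gaps under 500 bp) and 34950 bp (gaps under 1000 bp). The stretch of 14939 bp (65200226 to 65215164) lies after the 9280 bp domain and does not hold it, so this value moved by a switch of stretch. Of windows on chromosome 11, the shares with fewer peaks than this one were 96.3% for antibody 1, 84.2% for antibody 2 and 99.6% for polymerase, and with less covered length 98.9%, 96.1% and 100%. Over all windows with lists called against input, the shares were 90.0%, 80.7% and 99.2% by peaks and 96.6%, 94.6% and 99.8% by covered length; the cause of these differences was not tested. No antibody 1 peak was called within NEAT1 in the input list or with the width limit, and none against IgG with 2 kb added. Against input, a 136 bp antibody 1 peak lay 601 bp before the start, within those 2 kb. No paired analysis was possible because each antibody has 1 library and the labels give no replicate numbers. Without read counts or scores, which of the narrow peaks rest on few reads is unknown.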
